A study of Mus musculus with 24 samples.

Results

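The response of C2C12 cells to differentiation medium was compared between 21% and 2% oxygen, as a difference of differences for each gene. C2C12 is an established mouse myoblast line that divides in growth medium and fuses into myotubes after the serum is lowered. The comparison used the 8 RNA-seq libraries among the 24 samples of the series, with replicates A and B in each of 4 groups. Cells were in growth medium (DMEM with 10% FBS) or in differentiation medium (DMEM with 2% horse serum and the ITS supplement), each at 21% oxygen (the NOR groups) or at 2% oxygen (the HYP groups). The cells carried no genetic change or drug that the labels name, and growth cultures were kept below confluence. The media differ in serum source and amount and in the supplement, and the time the cells spent at 2% oxygen is not given in the sources used here. Because RNA was taken from whole cultures, fewer cells of a kind and less RNA per cell cannot be told apart.

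The interaction is the change with differentiation medium at 2% oxygen minus that at 21% oxygen. It was computed on log2(FPKM + 1), where FPKM is a fragment count divided by transcript length and by the mapped fragments of the library, as the authors deposited it. All 12389 of 24043 genes with a mean of at least 1 FPKM in any group were tested. A gene was called where its adjusted p, from limma with Benjamini-Hochberg adjustment over these genes, was under 0.05. Where values are given in pairs, the first is replicate A and the second replicate B, and all changes are on the log2(FPKM + 1) scale unless a level in FPKM is named. The contractile and other muscle genes (188 tested) and the glycolysis genes (34 tested) were set aside, and the genes described here lie outside them.

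Replicates correlated with Pearson's r of 0.975 to 0.983 over the tested genes in 3 groups and 0.958 in differentiation medium at 2% oxygen. There, 613 genes lay more than 2-fold apart between A and B, against 56 to 71 in the other groups. Relative depth ran from 0.633 to 1, and both ends were in that same group (B and A). The standard error (SE) of a medium change was pooled over all groups for each gene, so it is the same at both oxygen levels. For genes whose A and B differed most in differentiation medium at 2% oxygen, it understates the spread at 2% oxygen. For these genes it overstates the spread at 21% oxygen. As a check of the labels, Myog, a transcription factor that drives myoblast differentiation, was at 13.3 and 8.83 FPKM in growth medium and 2576 and 2642 FPKM in differentiation medium at 21% oxygen. At 2% oxygen its levels were 0.342 and 0.442 and then 4.49 and 2.14 FPKM. Myod1, a myoblast identity factor, was detected in every library, at 6.95 and 11.8 FPKM in differentiation medium at 2% oxygen and at 25.1 to 180 FPKM elsewhere. Other myoblast markers did not all follow it. Of 9 tested, Myod1 included, 2 rose and 3 fell with differentiation medium at 2% oxygen. The 10 listed, Myod1 included, summed to 244.5 and 251.7 FPKM in growth medium and 268.5 and 262.2 FPKM in differentiation medium at 2% oxygen. At 21% oxygen the sums were 643.6 and 565.7 and 1021.5 and 1014.4 FPKM. Of 10 endothelial and blood markers, 3 were listed at 0 in every library, Pecam1, Cdh5 and Ptprc were at or below 0.133 FPKM, and Hba-a1 and Cd68 reached 3.855 and 42.75 FPKM. The 10 adipocyte markers summed to 4.292 to 29.95 FPKM, with 3 listed at 0 in every library and Adipoq at or below 0.133 FPKM, while Cebpa, Lpl and Pparg reached 19.06, 14.21 and 5.367 FPKM. Summed levels ran from 135.7 to 1609 FPKM for 10 osteoblast markers, from 143.8 to 448.8 FPKM for 8 smooth muscle markers and from 8.428 to 27.02 FPKM for 10 chondrocyte markers. Of the osteoblast markers, Spp1 alone was at 125.6 to 1580.1 FPKM, highest in growth medium at 21% oxygen. Bglap and Bglap2 were highest in differentiation medium at 21% oxygen, reaching 93.05 and 166.7 FPKM. Sp7, Alpl, Ibsp and Dlx5 were at or below 0.2301 FPKM. The part of all these markers in the results was not tested.

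Low oxygen is sensed through hydroxylases that need oxygen to mark hypoxia-inducible factors for destruction. Other oxygen-using or nutrient-sensing systems lie close to it. Several steps of cholesterol synthesis consume oxygen, and its genes are switched on by SREBP2 when sterols run low. Amino acid shortage and endoplasmic reticulum stress raise ATF4, type I interferon acts through transcription factors that include STAT2 and IRF9, and oxidants release NRF2. These pathways are known in many cell types, muscle cells included.

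The medium response differed between the oxygen levels for 6707 genes, which is 54.1% of those tested. The interaction was positive for 4390 genes (35.4%) and negative for 2317 (18.7%). The largest classes were genes that fell at 21% oxygen and had no call at 2% oxygen (2093, positive interaction) and genes that rose at 21% oxygen and had no call at 2% oxygen (1312, negative interaction). Genes called in opposite directions at the 2 oxygen levels were fewer. Of these, 820 (6.62%) rose with differentiation medium at 2% oxygen and fell at 21% oxygen, and 302 (2.44%) did the reverse. All 820 and all 302 moved the same way in the A and in the B libraries. The calls were made on these same libraries, so this follows largely from the selection and is not separate support. Outside the muscle and glycolysis genes the counts were 812 and 287.

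Most opposite changes were modest. The first set had a median change of -0.689 at 21% oxygen and 0.556 at 2% oxygen, and the reverse set 0.87 and -0.584, against -0.199 and 0.0655 over all tested genes. Both changes reached 1 on the log2 scale in 49 genes of the first set and 29 of the reverse set. The balance of directions rests on the scaling of the libraries. The median interaction over all genes was 0.267 with the deposited values and -0.012 after median-of-ratios scaling, the positive share of called genes was 65.5% and 47.4%, and the opposite sets held 441 and 470 genes after that scaling, 437 and 300 of them shared with the sets above. Leaving out replicate A of differentiation medium at 2% oxygen gave 1551 and 365 opposite genes (757 and 261 shared), and leaving out its replicate B gave 862 and 446 (671 and 264 shared). For each gene named in the next paragraphs up to the gene lists, the interaction kept its direction and its call after median-of-ratios scaling and without either of those 2 libraries.

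**Figure D1:**
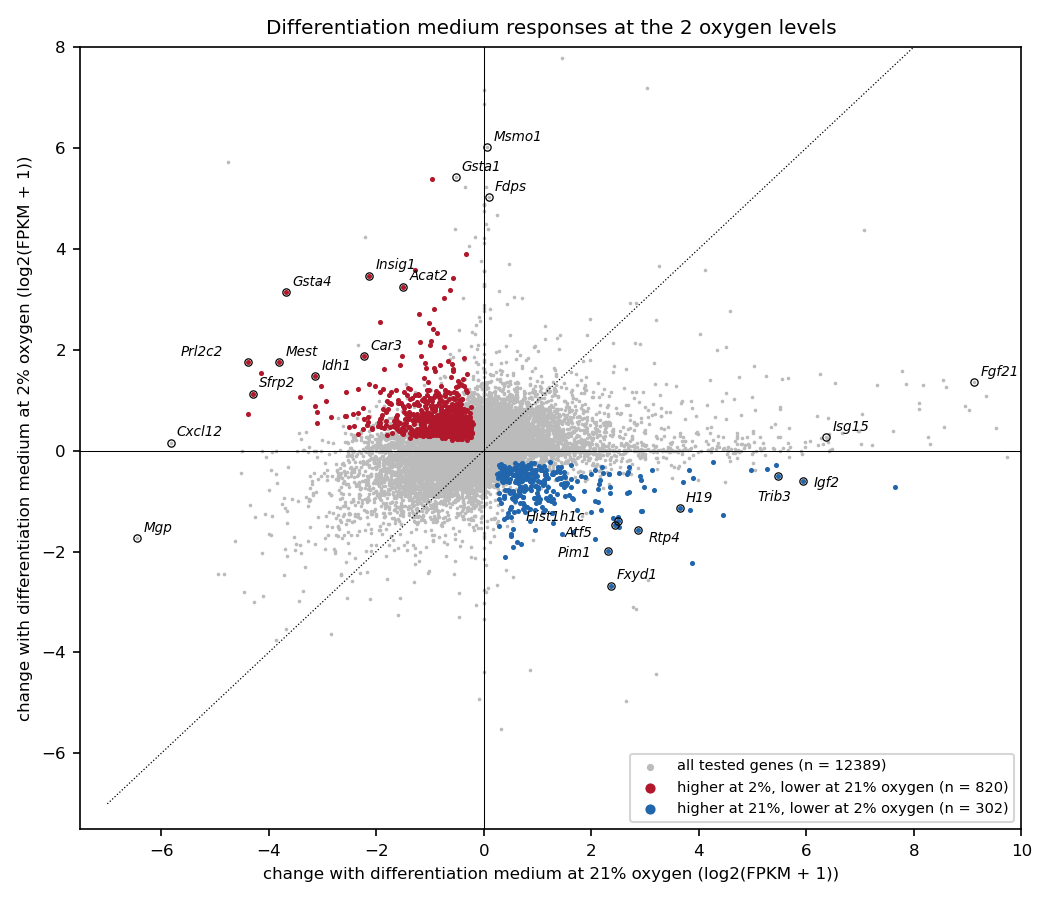
Change with differentiation medium at 21% oxygen (x axis) against that at 2% oxygen (y axis), both on the log2(FPKM + 1) scale, for the 12389 tested genes (1 point a gene). The 820 genes higher at 2% and lower at 21% oxygen (red) and the 302 with the reverse pattern (blue) fill opposite quadrants, and the dotted line marks equal change.

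Among genes that rose at 2% oxygen and fell at 21% oxygen, the one with the largest smaller change was Gsta4, a glutathione transferase that clears 4-hydroxynonenal and other products of lipid peroxidation. At 21% oxygen its level was 119 and 116 FPKM in growth medium and 8.14 and 8.56 FPKM in differentiation medium. At 2% oxygen the corresponding levels were 50 and 50.6 FPKM and 723 and 281 FPKM. Both differentiation libraries at 2% oxygen were above every other library, and both at 21% oxygen were below every other, although A and B at 2% oxygen lay more than 2-fold apart. The changes were -3.67 (SE 0.38) and 3.14 (SE 0.38), with an interaction of 6.80 (SE 0.54, adjusted p = 0.000123). Idh1, the cytosolic enzyme that makes NADPH from isocitrate, followed the same pattern with tighter replicates. Its level went from 96.7 and 102 to 10.4 and 10.4 FPKM at 21% oxygen and from 31 and 31.2 to 97.4 and 79.7 FPKM at 2% oxygen (interaction 4.61, SE 0.14, adjusted p = 2.91e-06).

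Insig1 and Acat2 belong to sterol metabolism. Insig1 encodes the membrane protein that holds SREBPs in the endoplasmic reticulum when sterols are plentiful. It fell from 32.2 and 34.9 to 6.4 and 7.35 FPKM at 21% oxygen and rose from 4.73 and 5.08 to 54.4 and 76.3 FPKM at 2% oxygen (interaction 5.61, SE 0.23, adjusted p = 8.28e-06). Acat2, the cytosolic thiolase that condenses acetyl-CoA at the start of the mevalonate route, went from 14.5 and 14.1 to 4.33 and 4.51 FPKM and from 4.15 and 4.3 to 31.3 and 75.7 FPKM. In both genes the growth medium libraries at 2% oxygen were the lowest and the differentiation libraries at 2% oxygen the highest of all 8. Pcyt1b, an enzyme of phosphatidylcholine synthesis, went from 3.42 and 3.41 to 0.203 and 0.247 FPKM and from 5.08 and 4.85 to 16.8 and 17.8 FPKM.

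Mest, a paternally expressed imprinted gene of mesoderm, and Car3, a carbonic anhydrase, showed a different order of levels. Mest fell from 212 and 204 to 13.4 and 14.5 FPKM at 21% oxygen and rose from 1.19 and 1.11 to 7.1 and 5.55 FPKM at 2% oxygen (interaction 5.57, SE 0.17, adjusted p = 2.76e-06). Car3 fell from 321 and 299 to 71.8 and 59.3 FPKM and rose from 1.72 and 2.01 to 6.67 and 13.3 FPKM (interaction 4.10, SE 0.38, adjusted p = 0.000238). For these genes every library at 2% oxygen was below every library at 21% oxygen, so the rise at 2% oxygen started from a level far under that of growth medium at 21% oxygen. Tubb3, the beta-tubulin best known from neurons, and Tinagl1, a matrix glycoprotein, were highest in differentiation medium at 2% oxygen, at 36.8 and 65.7 and 44.6 and 67.7 FPKM. Tubb3 was at 13.3 and 14.3 FPKM in growth medium and 3.91 and 4.21 FPKM in differentiation medium at 21% oxygen, and Tinagl1 at 7.02 and 5.72 and 0.505 and 0.863 FPKM. Prl2c2 and Prl2c3, which encode the proliferin hormones, rose to 20.3 and 39.4 and 21.1 and 38.4 FPKM at 2% oxygen and were at or below 0.0718 FPKM in differentiation medium at 21% oxygen. These 2 genes are near-identical copies, so the division of reads between them is uncertain.

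The reverse pattern was led by Fxyd1, which encodes phospholemman, a regulator of the sodium pump. It rose from 5.68 and 4.48 to 30.6 and 29.6 FPKM at 21% oxygen, while at 2% oxygen it was at 6.32 and 4.56 FPKM in growth medium and listed at 0 in both libraries in differentiation medium. Pim1, a kinase that promotes cell survival, rose from 15.3 and 14.3 to 75.4 and 78.9 FPKM at 21% oxygen and fell from 31.1 and 33.7 to 5.62 and 9.81 FPKM at 2% oxygen (interaction -4.29, SE 0.30, adjusted p = 7.37e-05). The groups of each medium pair did not overlap in either gene. Hist1h1c, a linker histone, rose from 31.1 and 29.3 to 164 and 185 FPKM and fell from 66.2 and 73.9 to 34.6 and 19.5 FPKM. Snhg1, a long noncoding host of small nucleolar RNAs, rose from 61.7 and 75.9 to 187 and 190.3 FPKM and fell from 167 and 162 to 45.7 and 59.1 FPKM.

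Atf5 and Pck2 both respond to ATF4, and both crossed. Atf5, a stress transcription factor, rose from 25.4 and 22.2 to 132 and 135 FPKM at 21% oxygen and fell from 379.6 and 402 to 162 and 122 FPKM at 2% oxygen (interaction -3.91, SE 0.20, adjusted p = 2.08e-05). Its highest libraries were those in growth medium at 2% oxygen, and the differentiation libraries at the 2 oxygen levels overlapped. Pck2, the mitochondrial phosphoenolpyruvate carboxykinase, rose from 18 and 16 to 101 and 102 FPKM and fell from 41.2 and 42.6 to 15.7 and 12.6 FPKM (interaction -4.02, SE 0.16, adjusted p = 7.21e-06). Lpl, the lipase that frees fatty acids from lipoproteins, rose from 4.95 and 5.07 to 13.3 and 14.2 FPKM and fell from 2.59 and 2.48 to 0.291 and 0.319 FPKM.

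Cebpd, a transcription factor induced by cytokines and stress, was at 20.3 and 11.9 and then 53.3 and 50.1 FPKM at 21% oxygen, and at 15 and 16.2 and then 4.15 and 4.7 FPKM at 2% oxygen. Rtp4, an interferon-inducible chaperone of membrane receptors, rose from 4.4 and 3.33 to 33.9 and 34.7 FPKM and fell from 3.71 and 2.81 to 0.409 and 0.448 FPKM. Npnt, an integrin ligand of the matrix, rose from 13.1 and 13.5 to 58.2 and 60.6 FPKM at 21% oxygen, and its fall at 2% oxygen, from 13.9 and 11.1 to 1.26 and 6.13 FPKM, had the widest replicate spread of these genes (SE 0.47, adjusted p = 0.0258). Pdzd7, a scaffold protein, and Tmem140 completed the set, with interactions of -3.74 (SE 0.18) and -3.22 (SE 0.20).

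**Figure D2:**
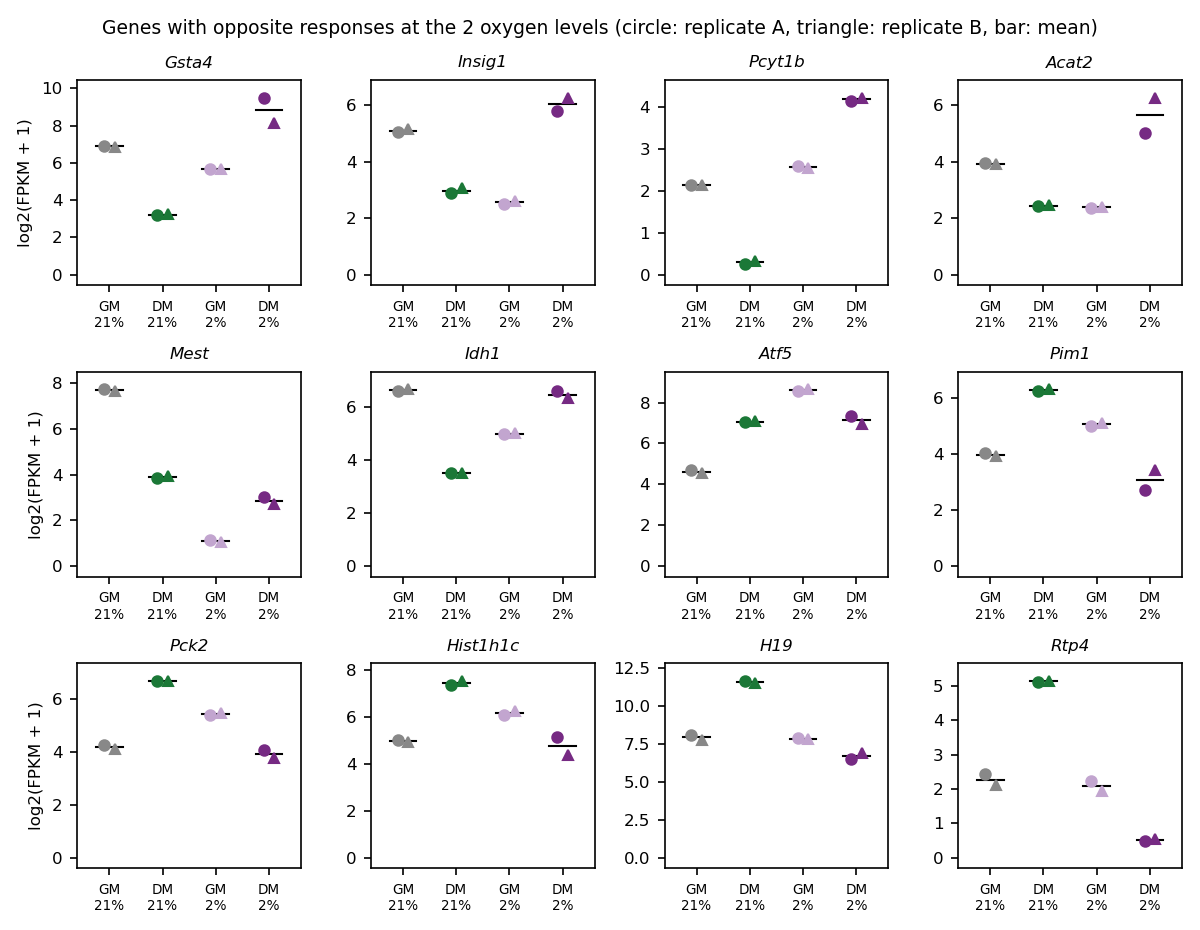
Level of 12 genes with opposite responses, as log2(FPKM + 1) on the y axis, in growth (GM) and differentiation (DM) medium at 21% and 2% oxygen, with 1 point a library and a bar for the mean of A and B. Gsta4 to Idh1 fall in DM at 21% and rise in DM at 2% oxygen, and Atf5 to Rtp4 do the reverse.

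Among genes that did not cross, the most positive interaction belonged to Cxcl12, the chemokine that guides cells carrying CXCR4. It fell from 159 and 163 to 2.03 and 1.7 FPKM at 21% oxygen and was at 141 and 139.6 FPKM in growth medium and 193 and 128 FPKM in differentiation medium at 2% oxygen (interaction 5.99, SE 0.25, adjusted p = 9.84e-06). Both differentiation libraries at 21% oxygen stood apart from the other 6. Mgp, an inhibitor of tissue calcification, fell at both oxygen levels, from 672 and 583 to 5.31 and 7.18 FPKM and from 66.7 and 82 to 33.2 and 13.9 FPKM, and less at 2% oxygen (interaction 4.72, SE 0.52, adjusted p = 0.000464). Gsta1 and Gsta2, close relatives of each other, were at most 1.92 FPKM in 3 groups and rose to 210.2 and 54.2 and 51.4 and 14 FPKM in differentiation medium at 2% oxygen. Replicate B was well below replicate A in both, and reads may be shared between these copies.

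The most negative interaction was that of Fgf21, a secreted metabolic hormone that stressed muscle releases. It was at 0.67 and 0.129 FPKM in growth medium and 785 and 751 FPKM in differentiation medium at 21% oxygen. At 2% oxygen it rose from 1.83 and 1.87 to 6.04 and 6.52 FPKM, so the 2 differentiation groups were both above their growth medium controls but on different scales (interaction -7.78, SE 0.25, adjusted p = 3.11e-06). Tmem182, a membrane protein of muscle that was not in the list of muscle genes set aside, was at 96.9 and 93.7 FPKM in differentiation medium at 21% oxygen and at or below 0.215 FPKM in the other 6 libraries. The other 4 genes named for a negative interaction were Ifit3, Isg15, Usp18 and Ifit1, which are interferon-induced and are described with their group.

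The 30 lists of genes by function were then read against the background shares, which are those of all tested genes. At 21% oxygen 25.5% rose and 41% fell, and at 2% oxygen 23.3% rose and 17.6% fell. The interaction was positive for 35.4% and negative for 18.7%. The share that rose at 2% and fell at 21% oxygen was 6.62%, and 2.44% did the reverse. A list count near these shares says nothing particular about the list. Genes named in them beyond the 3 with the largest interaction of each list were chosen after their values were seen.

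Cholesterol synthesis genes had the largest positive list median. Of 25 listed genes in the table, 24 were tested, and 23 had a positive interaction call and none a negative one. The list median was 3.81 for the interaction, -0.281 for the change at 21% oxygen and 3.21 for that at 2% oxygen. All 24 tested genes rose at 2% oxygen, against 23.3% of all tested genes. At 21% oxygen 12 fell (41% of all tested genes did) and 1 rose, and those 12 crossed. The number that crossed was 9 after median-of-ratios scaling, 6 without either library of growth medium at 21% oxygen, and 4 and 5 without replicate A or B of differentiation medium at 21% oxygen. In the libraries, the list median of log2(FPKM + 1) was 3.75 and 3.71 in growth medium and 3.51 and 3.46 in differentiation medium at 21% oxygen, and 2.19 and 2.31 and then 5.26 and 6.07 at 2% oxygen. The list was therefore lowest in growth medium at 2% oxygen and highest in differentiation medium at 2% oxygen, with replicate B above A in the latter.

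A regulator of the route moved with its enzymes. Srebf2, which encodes SREBP2, fell from 102 and 91.9 to 48.4 and 46.8 FPKM at 21% oxygen and rose from 22.9 and 24.7 to 130.0 and 154 FPKM at 2% oxygen (interaction 3.54, SE 0.15, adjusted p = 9.18e-06).

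Later enzymes did not all fall at 21% oxygen. Fdps, which makes farnesyl diphosphate, was at 67.3 and 63.2 FPKM in growth medium and 67.2 and 71.9 FPKM in differentiation medium at 21% oxygen, a change of 0.09 (SE 0.29) that was not called, and rose from 6.92 and 6.72 to 177 and 359 FPKM at 2% oxygen. Msmo1, a sterol methyl oxidase that uses oxygen, was at 21 and 21.3 and 22.1 and 22.3 FPKM at 21% oxygen and rose from 2.06 and 1.3 to 136 and 213 FPKM at 2% oxygen. Sqle and Cyp51, which also use oxygen, rose from 11.6 and 12 to 178 and 203 FPKM and from 2.17 and 2.19 to 45.8 and 76.3 FPKM at 2% oxygen. Dhcr7, a late reductase of the route, was the exception in the list, since it rose at both oxygen levels, by 1.98 (SE 0.27) and 2.60 (SE 0.27), and its interaction of 0.62 (SE 0.38) was not called (adjusted p = 0.203), although it was called without replicate A of differentiation medium at 2% oxygen (1.08).

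Fatty acid synthesis and desaturation genes moved in the same directions by smaller amounts. All 16 rose at 2% oxygen (background 23.3%), 9 fell and 4 rose at 21% oxygen (backgrounds 41% and 25.5%), and the 9 that fell all crossed (background 6.62%). The interaction was called positive for 12 and negative for 1, with a list median of 1.63. Fads2, the delta-6 desaturase, went from 22.9 and 25.2 to 9.4 and 9.34 FPKM at 21% oxygen and from 4.87 and 4.8 to 48.3 and 98.3 FPKM at 2% oxygen (interaction 4.85, SE 0.41, adjusted p = 0.000159). Acly, which supplies cytosolic acetyl-CoA, went from 26.2 and 26.4 to 13.3 and 13.1 FPKM and from 14.5 and 14.4 to 64.8 and 103 FPKM, and Fasn, the fatty acid synthase, from 26.4 and 25.8 to 12.6 and 12.3 FPKM and from 10.6 and 11.5 to 37.8 and 67.3 FPKM. Elovl6, an elongase, also crossed, but its level in differentiation medium at 2% oxygen, 3.51 and 6.51 FPKM, stayed below that of growth medium at 21% oxygen, 21 and 23.5 FPKM.

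**Figure D3:**
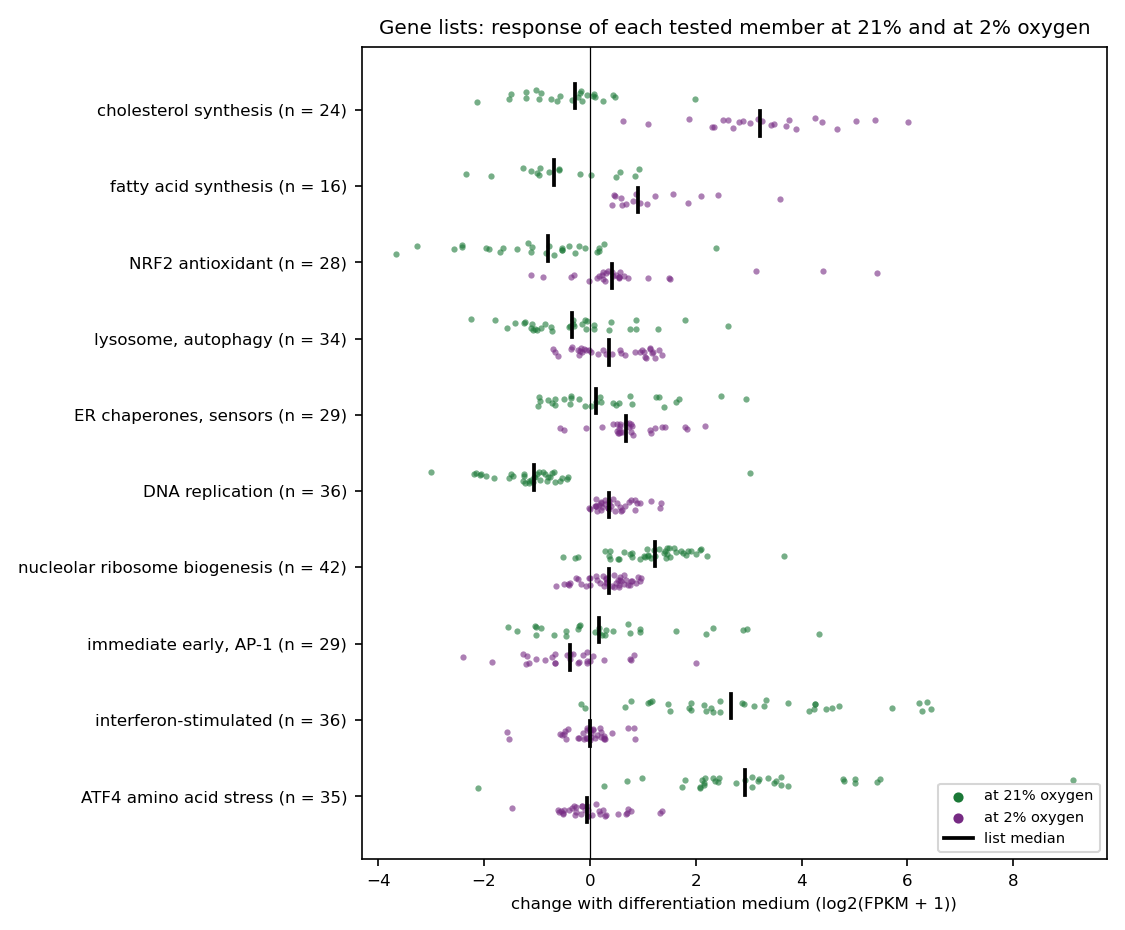
Change with differentiation medium on the log2(FPKM + 1) scale (x axis) for each tested member of 10 gene lists (y axis), at 21% oxygen (green) and 2% oxygen (purple), with the list median as a black bar. The cholesterol list has medians of -0.281 and 3.21 and the interferon-stimulated list 2.66 and 0.00554.

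Interferon-stimulated genes showed the opposite arrangement. All 36 listed genes were tested, 34 rose at 21% oxygen (background 25.5%), and 5 rose and 7 fell at 2% oxygen (background 17.6% for falls). The interaction was called negative for 34 and positive for none, and the list median was -2.75. The exceptions were Irf1 (interaction -0.36, SE 0.17, adjusted p = 0.117) and Psmb9 (-0.77, SE 0.33, adjusted p = 0.0908), both of which were called negative after median-of-ratios scaling. The list median of log2(FPKM + 1) was 5.03 and 5.1 in differentiation medium at 21% oxygen and between 0.926 and 1.92 in the other 6 libraries, so the groups did not overlap.

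Isg15, a ubiquitin-like modifier, was at 3.61 and 5.66 FPKM in growth medium and 442 and 476 FPKM in differentiation medium at 21% oxygen, and at 1.32 and 1.4 and 1.49 and 2.23 FPKM at 2% oxygen (interaction -6.11, SE 0.28, adjusted p = 1.31e-05). Ifit3 and Ifit1, which encode antiviral proteins, were at 109 and 111 and 125 and 124 FPKM in differentiation medium at 21% oxygen and at most 0.649 FPKM in any other library. Usp18, which removes ISG15 from proteins, was at 73.5 and 78.5 FPKM there and at most 0.13 FPKM elsewhere. Both differentiation libraries at 21% oxygen were thus far above the other 6 for these 4 genes.

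Irf7, a transcription factor that amplifies interferon production, rose from 2.07 and 1.4 to 51.3 and 49.3 FPKM at 21% oxygen and was at 0.997 and 1.19 and 1.01 and 1.35 FPKM at 2% oxygen. Irf9, which carries the interferon signal to DNA, crossed, from 6.22 and 5.7 to 51.8 and 51.1 FPKM and from 7.87 and 8.24 to 5.42 and 5.41 FPKM. Of the list, Irf9, Bst2, Gbp2, Rtp4 and Trim25 rose at 21% oxygen and fell at 2% oxygen, 5 genes in all. Under the alternative settings the number ranged from 2, without replicate B of growth medium at 2% oxygen, to 7, after median-of-ratios or upper-quartile scaling or without replicate B of differentiation medium at 2% oxygen, and it was 3 with a replicate block. H2-K1, a class I heavy chain, rose by 1.48 (SE 0.09) at 21% oxygen and 0.72 (SE 0.09) at 2% oxygen, and Tap2, a peptide transporter, fell by 1.53 (SE 0.14) at 2% oxygen and had no call at 21% oxygen (-0.10, SE 0.14).

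The promoters of 3 of these genes are shown because interferon signalling ends at a sequence that they carry. The interferon-stimulated response element was searched as GAAA, any 2 bases and GAAA, on both strands in the 250 bases before each start, and overlapping matches were counted. Of the 27 interferon-stimulated genes with a promoter in the RefSeq table (GRCm38.p6), 10 held it (37%), against 303 of 9750 tested genes with a promoter (3.11%). Matches are in capitals, 5′ to 3′ on the gene's strand, and a match is not evidence of binding in these cells.
Isg15 (chr4:156200819-156201068, minus strand): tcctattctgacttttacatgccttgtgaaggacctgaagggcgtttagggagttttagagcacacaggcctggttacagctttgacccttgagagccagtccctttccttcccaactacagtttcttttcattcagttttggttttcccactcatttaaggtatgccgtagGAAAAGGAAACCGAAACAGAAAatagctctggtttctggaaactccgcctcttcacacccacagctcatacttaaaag
Ifit3 (chr19:34583279-34583528, plus strand): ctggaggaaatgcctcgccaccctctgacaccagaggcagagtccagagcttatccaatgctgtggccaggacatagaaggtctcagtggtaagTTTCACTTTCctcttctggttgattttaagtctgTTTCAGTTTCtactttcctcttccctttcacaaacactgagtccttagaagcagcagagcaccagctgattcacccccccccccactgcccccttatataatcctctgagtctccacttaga
Ifit1 (chr19:34640639-34640888, plus strand): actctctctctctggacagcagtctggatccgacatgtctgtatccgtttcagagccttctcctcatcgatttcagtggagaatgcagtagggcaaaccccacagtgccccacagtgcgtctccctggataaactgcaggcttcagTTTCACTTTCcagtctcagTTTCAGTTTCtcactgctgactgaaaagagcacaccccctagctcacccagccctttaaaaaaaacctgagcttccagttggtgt
Isg15 holds 3 overlapping matches between 78 and 57 bases before its start. Ifit3 holds 2, at 156 to 147 and 122 to 113 bases, and Ifit1 holds 2, at 104 to 95 and 85 to 76 bases, in both genes on the opposite strand. These 3 genes rose with differentiation medium at 21% oxygen and had no call at 2% oxygen.

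ATF4 targets of amino acid stress also had a nearly uniform direction. Of 35 tested genes, 34 rose at 21% oxygen (background 25.5%) and 34 had a negative interaction call (background 18.7%), with a list median of -2.63. At 2% oxygen 9 rose and 8 fell, which is near the shares of all tested genes (23.3% and 17.6%). The list median of log2(FPKM + 1) was 3.93 and 3.85 in growth medium and 7.03 and 7.08 in differentiation medium at 21% oxygen, and 5.47 and 5.47 and then 5.56 and 5.29 at 2% oxygen. Both media at 2% oxygen therefore lay between the 2 groups at 21% oxygen. Cbs, the enzyme that joins homocysteine to serine, was the exception, with changes of -2.11 (SE 0.12) at 21% oxygen and -0.51 (SE 0.12) at 2% oxygen.

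Atf4 itself crossed, rising from 177 and 161 to 705 and 722 FPKM at 21% oxygen and falling from 426 and 428 to 334 and 316 FPKM at 2% oxygen (interaction -2.46, SE 0.11, adjusted p = 1.36e-05). Trib3, a pseudokinase that dampens ATF4, rose from 1.75 and 1.66 to 119.8 and 119.8 FPKM and fell from 64.2 and 64.3 to 52.8 and 38.8 FPKM. Chac1, which degrades glutathione, rose from 2.09 and 2.32 to 135 and 139 FPKM and fell from 29.9 and 31.2 to 26 and 24.2 FPKM, a change of -0.28 (SE 0.08, adjusted p = 0.0333). The other crossing members were Atf5, Slc1a4, Cebpg and Nupr1, which makes 7 of 35 against 2.44% of all tested genes. The number rests on single libraries: 1 member crossed without either library of growth medium at 2% oxygen, 4 without either of differentiation medium at 21% oxygen, and 13 without replicate A of differentiation medium at 2% oxygen. With a replicate block it was 5.

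Transport and one-carbon genes of the list rose at 21% oxygen. Slc7a5, the large neutral amino acid transporter, rose from 13.5 and 11.3 to 432 and 425 FPKM at 21% oxygen and was at 48.7 and 51 and 45.5 and 38.1 FPKM at 2% oxygen. Mthfd2, a mitochondrial folate enzyme, rose from 6.42 and 5.24 to 215 and 224 FPKM and was at 24.6 and 24.8 and 21.4 and 27.4 FPKM at 2% oxygen. Shmt2, the mitochondrial serine hydroxymethyltransferase, rose at both oxygen levels, from 27.4 and 23.7 to 271 and 271 FPKM and from 36.2 and 36.8 to 46.2 and 44.1 FPKM. Asns, the asparagine synthetase, and Psat1, of serine synthesis, also rose at both, Asns from 8.21 and 7.29 to 237 and 243 FPKM and from 44.1 and 42.1 to 78.5 and 64.4 FPKM, and Psat1 from 25.5 and 27.9 to 248 and 252 FPKM and from 59.8 and 59.3 to 196 and 115 FPKM. In Asns and Psat1 all 4 libraries of differentiation medium were above all 4 of growth medium.

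The amino acid response element, searched as TGATGNAA on both strands in the same window, is shown in 3 members because ATF4 and its partners act through it. It was present in 8 of 31 list genes with a promoter (25.8%), against 233 of 9750 tested genes (2.39%).
Asns (chr6:7693210-7693459, minus strand): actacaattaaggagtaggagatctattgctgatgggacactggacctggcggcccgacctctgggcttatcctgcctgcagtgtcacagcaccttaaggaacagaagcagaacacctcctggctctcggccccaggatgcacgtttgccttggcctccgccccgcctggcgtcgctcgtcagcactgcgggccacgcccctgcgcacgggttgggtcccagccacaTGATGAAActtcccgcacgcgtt
Chac1 (chr2:119350992-119351241, plus strand): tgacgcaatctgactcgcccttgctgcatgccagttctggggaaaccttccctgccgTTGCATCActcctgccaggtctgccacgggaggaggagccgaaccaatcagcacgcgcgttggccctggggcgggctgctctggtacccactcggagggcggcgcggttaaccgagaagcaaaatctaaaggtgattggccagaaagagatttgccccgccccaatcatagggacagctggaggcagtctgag
Fgf21 (chr7:45615491-45615740, minus strand): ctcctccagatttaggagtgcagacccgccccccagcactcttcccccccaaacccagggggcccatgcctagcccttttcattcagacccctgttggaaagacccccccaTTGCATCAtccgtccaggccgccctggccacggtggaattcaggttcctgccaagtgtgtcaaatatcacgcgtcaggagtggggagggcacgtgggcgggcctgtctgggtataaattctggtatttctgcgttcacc
The match lies 23 to 16 bases before the start in Asns, 193 to 186 bases in Chac1 and 139 to 132 bases in Fgf21. In Chac1 and Fgf21 it is on the opposite strand. Of these 3 genes, Asns and Fgf21 rose at both oxygen levels and Chac1 crossed, so the presence of these letters goes with both outcomes. Of the cholesterol genes, 0 of 16 with a promoter held TCACNCCAC, the sterol element as searched, against 1.12% of all tested genes, which says only that these letters are not in this window. The antioxidant response element, searched as TGACNNNGC, was present in 5 of 23 NRF2 list genes with a promoter (21.7%), against 13.9% of all tested genes and 25.8% of the ATF4 list.

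Of 28 tested antioxidant genes of the NRF2 list, 17 fell and 1 rose at 21% oxygen, 16 rose and 2 fell at 2% oxygen, and 10 crossed (6.62% of all genes did). The number that crossed was 5 without replicate A of growth medium at 2% oxygen and 6 with array quality weights. The interaction was called positive for 21 and negative for 2, with a list median of 1.56. Ftl1, the ferritin light chain, fell from 1616 and 1328 to 276 and 269 FPKM at 21% oxygen and rose from 1615 and 1744 to 2698 and 2830.1 FPKM at 2% oxygen (interaction 3.14, SE 0.17, adjusted p = 2.77e-05). Prdx1, a peroxide-reducing enzyme, went from 305 and 298 to 166 and 175 FPKM and from 197 and 186 to 429 and 390.4 FPKM. In both genes the differentiation libraries were the lowest at 21% oxygen and the highest at 2% oxygen.

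Tkt and G6pdx, enzymes of the pentose phosphate route, were among those that crossed. Tkt, the transketolase, went from 31.5 and 25.6 to 6.93 and 6.72 FPKM and from 25.5 and 27 to 40.6 and 42.5 FPKM, and G6pdx, the first dehydrogenase of the route and a source of NADPH, from 49 and 48.3 to 12.6 and 11 FPKM and from 14.5 and 17.6 to 25.9 and 22.6 FPKM. The 2 negative interactions were those of Nfe2l2, which encodes NRF2, with -0.89 (SE 0.11) at 2% oxygen and a call lost without any 1 of 4 libraries, and of Slc7a11, the cystine transporter, which rose by 2.39 (SE 0.09) at 21% oxygen and 0.29 (SE 0.09) at 2% oxygen. Glutathione transferases and metallothioneins, a list that shares Gsta1, Gsta2, Gsta4, Gstm1, Gstm2 and Gstp1 with that of NRF2, had 15 positive and 0 negative calls among 20 tested genes and a median of 1.81. Of that list, 15 of 20 fell at 21% oxygen (background 41%), and at 2% oxygen 5 rose and 5 fell (backgrounds 23.3% and 17.6%). Gstm1 was among those that fell, from 178 and 189.6 to 103 and 69.7 FPKM.

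Of 29 tested chaperones and stress sensors of the endoplasmic reticulum, 24 rose at 2% oxygen (background 23.3%), and 11 of these also fell at 21% oxygen (background 6.62%). The interaction was positive for 16 and negative for 8, with a median of 0.819. Sdf2l1, a chaperone cofactor, went from 14.2 and 10.7 to 6.16 and 5.46 FPKM at 21% oxygen and from 7.88 and 8.18 to 38.3 and 41.2 FPKM at 2% oxygen (interaction 3.15, SE 0.20, adjusted p = 4.8e-05), and P4hb, a disulfide isomerase that also serves collagen hydroxylation, from 424 and 415 to 226 and 207 FPKM and from 1007 and 1023 to 1572 and 1341 FPKM. Calr, the calcium-binding chaperone, was at 488 and 438 and 414 and 392 FPKM at 21% oxygen and rose from 301 and 292 to 739.5 and 849 FPKM at 2% oxygen.

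The 8 genes with a negative interaction were Herpud1, Ero1l, Atf6, Ern1, Xbp1, Derl1, Sel1l and Dnajb9. Herpud1 rose from 63.6 and 52.2 to 448 and 453 FPKM at 21% oxygen and was at 129 and 125 and 129 and 114 FPKM at 2% oxygen (interaction -3.01, SE 0.16, adjusted p = 2.34e-05). Hspa5, the main chaperone of the compartment, rose about equally at both oxygen levels, from 161 and 170.2 to 406 and 415 FPKM and from 159 and 154 to 346 and 394 FPKM, and its interaction of -0.07 (SE 0.12) was not called (adjusted p = 0.637), but was -0.40 and called after median-of-ratios scaling. After that scaling, or without replicate B of growth medium at 2% oxygen, 7 of the 29 genes crossed upward at 2% oxygen in place of 11.

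Lysosome genes leaned the same way as the chaperones. Of 34 tested, 18 fell and 8 rose at 21% oxygen, 17 rose and 5 fell at 2% oxygen, 10 crossed upward at 2% oxygen (6 after median-of-ratios or upper-quartile scaling or without either library of differentiation medium at 21% oxygen) and 1 crossed the other way. Of all tested genes, 41% fell and 25.5% rose at 21% oxygen, 23.3% rose and 17.6% fell at 2% oxygen, and 6.62% crossed upward at 2% oxygen. The 8 rises at 21% oxygen and 5 falls at 2% oxygen were thus no larger a share than over all tested genes. The interaction was positive for 21 and negative for 4, with a median of 0.904. Man2b1, a mannosidase, went from 24.8 and 21.9 to 4.07 and 4.18 FPKM and from 18 and 17.1 to 25.6 and 41.4 FPKM. Mcoln1, the calcium channel of the lysosome, went from 26.4 and 21.6 to 11.4 and 10.2 FPKM and from 26 and 26.9 to 50.6 and 54 FPKM.

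The lysosome genes that moved the other way included a regulator. Tfeb, a transcription factor of lysosome genes, was the gene that rose at 21% oxygen and fell at 2% oxygen, with changes of 0.41 (SE 0.15) and -0.61 (SE 0.15). It no longer met both calls with a replicate block, with no expression filter, without replicate B of growth medium at 21% oxygen, or without any 1 library of differentiation medium at 21% oxygen or growth medium at 2% oxygen. Ctsl, a cathepsin, rose from 187 and 182 to 637 and 645 FPKM at 21% oxygen and was at 229.6 and 232 and 248 and 224 FPKM at 2% oxygen. Cd68, a lysosomal glycoprotein used as a macrophage marker, was at 25.8 and 42.8 FPKM in differentiation medium at 2% oxygen and between 1.76 and 3.57 FPKM elsewhere. The blood and endothelial marker list, to which it belongs, summed to 27.2 and 47.1 FPKM in those libraries and to 1.95 to 6.31 FPKM in the others, with Ptprc, Pecam1 and Cdh5 near 0 in all of them. Their part in the change of the lysosome list was not tested.

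Proteasome subunits rose in both settings, 24 of 31 at 21% oxygen and 29 of 31 at 2% oxygen (backgrounds 25.5% and 23.3%). They had 12 positive and 1 negative interaction calls (5 and 7 after median-of-ratios scaling) and a median of 0.288, close to the 0.267 of all genes. Nuclear genes of oxidative phosphorylation also rose in both, 43 and 53 of 62, against the same backgrounds. They had 15 positive and 5 negative calls that became 7 and 19 after median-of-ratios scaling, so no direction is given for their interaction. Among these, Cox6a1, a subunit of cytochrome oxidase, crossed, falling from 548 and 461 to 195 and 191 FPKM at 21% oxygen and rising from 250.2 and 286 to 599.9 and 659 FPKM at 2% oxygen (interaction 2.61, SE 0.16, adjusted p = 5.09e-05). Mitochondrial ribosomal proteins had 16 positive and 5 negative calls among 49 with the deposited values, and 8 and 12 after median-of-ratios scaling, so no direction is given for them. Fatty acid oxidation and citrate cycle genes had 8 positive and 6 negative calls among 33, and 5 and 10 after median-of-ratios scaling. With the deposited values neither count was above the share of all tested genes (35.4% positive and 18.7% negative). More were positive without replicate A of differentiation medium at 2% oxygen. Cpt1a, which admits long-chain fatty acids to mitochondria, fell at both oxygen levels, from 66.4 and 69.8 to 6.21 and 6.29 FPKM and from 50.8 and 53.4 to 22.4 and 29.4 FPKM.

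Nucleolar genes of ribosome assembly rose mainly at 21% oxygen. Of 42 tested, 37 rose at 21% oxygen and 16 at 2% oxygen (backgrounds 25.5% and 23.3%). The interaction was negative for 26 (background 18.7%) and positive for none, with a median of -0.859. Rrp12, a ribosome export factor, rose from 2.17 and 1.88 to 36.1 and 39 FPKM at 21% oxygen and from 1.01 and 1.09 to 2.04 and 4.12 FPKM at 2% oxygen (interaction -2.73, SE 0.33, adjusted p = 0.000667). Nop14, of the small subunit processome, rose from 9.89 and 10.5 to 45.8 and 48.5 FPKM at 21% oxygen and was at 14.7 and 16.1 and 14.6 and 19.4 FPKM at 2% oxygen. Without replicate B of differentiation medium at 21% oxygen, 17 genes had a negative call. The ribosomal proteins themselves had 1 positive and 6 negative calls among 54, and 14 negative ones after median-of-ratios scaling. The number of negative calls also moved when single libraries were left out. At 21% oxygen 24 fell and 1 rose, and at 2% oxygen 37 fell and 0 rose. Of all tested genes, 41% fell at 21% oxygen and 17.6% at 2% oxygen. The falls at 21% oxygen were thus near the share of all tested genes, and those at 2% oxygen were above it.

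**Figure D4:**
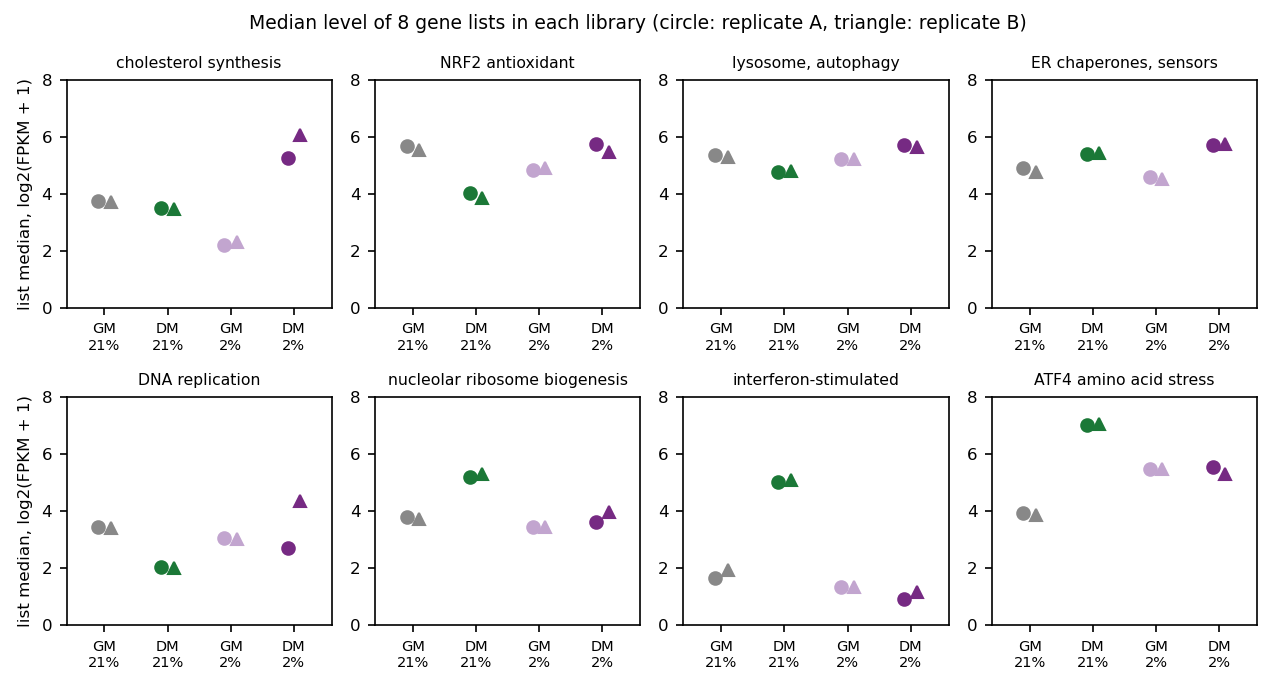
Median of log2(FPKM + 1) over the tested members of 8 gene lists (y axis) in each of the 8 libraries, grouped by medium (GM, growth; DM, differentiation) and oxygen (x axis), with circles for replicate A and triangles for B. The interferon-stimulated list is at 5.03 and 5.1 in DM at 21% oxygen and at or below 1.92 elsewhere, and the DNA replication list differs between A and B in DM at 2% oxygen (2.72 and 4.36).

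Cell cycle genes could not be read as 1 group, because the replicates in differentiation medium at 2% oxygen disagreed. The median of log2(FPKM + 1) over 36 mitosis genes was 2.33 in A and 4.61 in B there, against 2.12 and 2.18 in differentiation medium at 21% oxygen and 3.42 to 4.29 in growth medium. At 21% oxygen 33 of the 36 fell. The interaction was called for 0 of 36 with both replicates (16 had an unadjusted p under 0.05), for 36 without replicate A and for 23 without replicate B, all positive, with list medians of 1.94, 3.05 and 0.81. With array quality weights it was called for 25, all positive. At 2% oxygen the list median of the medium change was 0.961 without replicate A and -1.31 without replicate B, so its direction rests on 1 library. DNA replication genes had 18 positive and 1 negative calls among 36, with 35 positive without replicate A, 27 without replicate B, 28 with array quality weights and 5 to 7 without any 1 library of the other 3 groups. Their median change at 2% oxygen was 1.22 without A and -0.306 without B. E2f2, a transcription factor of the cycle, was the negative call, at 62.4 and 65.7 FPKM in differentiation medium at 21% oxygen and at most 7.24 FPKM elsewhere.

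Outside the cell cycle, Acta2, a contractile protein of smooth muscle and of activated fibroblasts, also differed between these replicates, at 71.1 FPKM in A and 251.7 FPKM in B. Targets of p53 and of YAP and SRF changed their balance with the same libraries. With all libraries, the YAP and SRF calls were near the shares of all tested genes (35.4% positive and 18.7% negative). The p53 list had 2 positive and 9 negative calls among 25, 9 and 9 without replicate A, and 3 and 16 without replicate B. Cdkn1a, the cell cycle inhibitor induced by p53, kept a negative interaction of -3.65 (SE 0.23), with 64.4 and 55.3 and 947 and 984 FPKM at 21% oxygen and 242 and 241 and 257 and 364 FPKM at 2% oxygen. The YAP and SRF list had 8 positive and 4 negative calls among 24, with 13 and 5 without replicate A, 10 and 9 without replicate B and 7 and 7 after median-of-ratios scaling. Immediate early genes had 1 positive and 14 negative calls among 29, and 8 and 14 without replicate A. Klf4 and Fos rose at 21% oxygen, by 2.2 (SE 0.09) and 2.33 (SE 0.33), and their changes at 2% oxygen were -0.32 (SE 0.09, called) and -0.66 (SE 0.33, not called).

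Imprinted and insulin-like growth factor genes crossed in both directions. Of 22 tested, 9 had a positive and 9 a negative interaction (backgrounds 35.4% and 18.7%). Igf2, the fetal growth factor, rose from 3.82 and 3.02 to 272 and 269 FPKM at 21% oxygen and fell from 1.36 and 1.43 to 0.531 and 0.624 FPKM at 2% oxygen (interaction -6.55, SE 0.16, adjusted p = 1.96e-06). H19, the noncoding RNA of the same imprinted domain, rose from 274 and 217 to 3250.2 and 2875 FPKM and fell from 233 and 226 to 89.5 and 119 FPKM (interaction -4.79, SE 0.24, adjusted p = 1.84e-05). Insr crossed with them, and the number of members that did ranged from 1, without replicate B of growth medium at 2% oxygen, to 5, without replicate A of differentiation medium at 2% oxygen. Mest, described above, Igfbp3 and Ndn crossed the other way, and 2 or 3 members did so under each alternative run.

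Among secreted signals and their receptors, Sfrp2, a Wnt-binding protein, fell from 56.9 and 45.9 to 1.58 and 1.71 FPKM at 21% oxygen and rose from 7.46 and 7.53 to 16.5 and 18.7 FPKM at 2% oxygen (interaction 5.43, SE 0.18, adjusted p = 3.15e-06). Tgfbr2, the type II receptor for TGF-beta, went from 47.2 and 51.7 to 18.7 and 18.1 FPKM and from 50.1 and 50.9 to 116 and 92.3 FPKM. Efnb2, an ephrin ligand, went from 3.72 and 3.67 to 1.5 and 1.44 FPKM and from 11.6 and 11.8 to 23.3 and 28.1 FPKM. The lists that hold them were divided, with 7 positive and 4 negative calls among 22 Wnt genes (6 and 6 after median-of-ratios scaling) and 9 and 7 among 31 TGF-beta and BMP genes (7 and 12). With the deposited values these counts were near the shares of all tested genes (35.4% positive and 18.7% negative). In the TGF-beta and BMP list 14 were positive without replicate A of differentiation medium at 2% oxygen and 14 negative without its replicate B. Axon guidance ligands and receptors had 19 positive and 4 negative calls among 40 with the deposited values and 14 and 7 after the same scaling. Fst, which binds activins and myostatin, rose at 21% oxygen, from 0.64 and 0.808 to 34.3 and 34.2 FPKM, and was at 2.25 and 1.39 and 0.767 and 5.55 FPKM at 2% oxygen.

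Rbpj, the DNA-binding partner of Notch, crossed, rising from 15.5 and 16.3 to 27.5 and 26.3 FPKM at 21% oxygen and falling from 42.4 and 41.2 to 22.8 and 20.5 FPKM at 2% oxygen. The 15 tested Notch genes had 4 positive and 5 negative calls (backgrounds 35.4% and 18.7%), with more positive ones without replicate A of differentiation medium at 2% oxygen. Clock genes had 4 positive and 10 negative calls among 18, against the same backgrounds. Per2, Cry2 and Nfil3 rose at 21% oxygen and fell at 2% oxygen (background 2.44%). The number that did so was 2 with a replicate block or with no expression filter, and 5 after median-of-ratios or upper-quartile scaling. It was also lower without any 1 library of growth medium or of differentiation medium at 21% oxygen. Nfil3, a repressor that shapes the output of the clock, went from 18 and 14.2 to 88.6 and 83.2 FPKM and from 47.2 and 46.8 to 25.6 and 25.9 FPKM. Genes of NF-kB and inflammation had 8 positive and 11 negative calls among 27 (backgrounds 35.4% and 18.7%). They were led by Cxcl10, which is also interferon-induced and rose by 5.05 (SE 0.42) at 21% oxygen.

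Of 33 fibrillar and matricellular matrix genes, 22 fell and 5 rose at 21% oxygen (backgrounds 41% and 25.5%), and 18 fell and 4 rose at 2% oxygen (backgrounds 17.6% and 23.3%), with 16 positive and 5 negative interaction calls (10 and 7 after median-of-ratios scaling). Fbln5, an elastic fibre protein, was an exception that rose from 4 and 3.55 to 14.5 and 15.3 FPKM at 21% oxygen and fell from 8.56 and 9.02 to 3.41 and 3.3 FPKM at 2% oxygen. Matrix proteases and inhibitors had 9 positive and 4 negative calls among 19 (5 and 5 after that scaling), and Mmp2, a gelatinase, fell from 433 and 395 to 73.5 and 67.8 FPKM and from 163 and 175 to 104 and 109.7 FPKM. Targets of hypoxia-inducible factors outside glycolysis had 10 positive and 17 negative calls among 43 (backgrounds 35.4% and 18.7%). Stc2, a secreted glycoprotein, had the largest negative one of them (-3.64, SE 0.20), at 17.4 and 18.5 FPKM in differentiation medium at 21% oxygen and at most 1.8 FPKM in the other 6 libraries. Stc2 is also a member of the ATF4 list described above. Lipid uptake and storage genes had 11 positive and 8 negative calls among 23 (backgrounds 35.4% and 18.7%). Fabp3, the fatty acid carrier of heart and skeletal muscle, rose at 21% oxygen from 1.65 and 0.773 to 88.4 and 94.6 FPKM. At 2% oxygen it was at 0.614 and 0.473 and 1.54 and 0.942 FPKM.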

How the data were processed

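RNA-seq of C2C12 cells was analysed in 8 libraries, 2 in each of 4 groups of medium and oxygen. The authors deposited FPKM per gene symbol, 1 column a library. STAR 2.5.1b, Cufflinks 2.2.1 and the build mm9 appear in the submitters' processing notes, and the use of strand, the annotation and any scaling between libraries are not given in the sources used here. Reads of overlapping, antisense or near-identical genes may therefore be divided between them. RNA was converted to stranded total RNA libraries, per the labels' protocols. The 16 chromatin and input libraries were not used here.

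Values were analysed as log2(FPKM + 1), a scale that understates changes of genes near or under 1 FPKM, with limma 3.58.1 (R 4.3.3): 4 group means, a trend in the variance prior, 4 residual and 2.61 prior degrees of freedom, two-sided tests, and Benjamini-Hochberg adjustment over the 12389 genes with a mean of at least 1 FPKM in any group (threshold 0.05). A gene crossed where both medium changes and the interaction were called and the medium changes had opposite signs. The fit was tested on simulated data. The letters A and B are called biological replicates in the series' design, and nothing further says how the cultures were separated. The p-values therefore measure the spread between these libraries. In the main fit that spread was pooled over all groups for each gene, so SEs and p-values do not follow the spread of a single group. Absolute depth is unknown, and relative depth was read from the smallest steps of low values.

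Named genes are, outside the muscle and glycolysis lists, small RNA and predicted genes and genes under 10 FPKM in every group mean: the 12 of each crossing set with the largest smaller change, the 6 most positive and 6 most negative other interactions, and up to 3 members of each list with the largest called interaction. Some genes that the rule names are not reported here. The members, lists and rules were chosen with earlier results of these data known. Promoter sequences of the 250 bases before a start are from RefSeq (GRCm38.p6), matched by symbol for 9750 tested genes. Alternatives tried were other pseudocounts, filters, scalings, array weights, a robust variance prior, a replicate block, minimum changes and leaving out each library.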

Additional observations from a re-analysis of the deposited data

Results flagged for a closer look

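The medium response itself differed between the oxygen levels, by the interaction term, for 6707 of 12389 genes, which is why these counts are set out for a closer look. Of them, 820 rose with differentiation medium at 2% oxygen and fell at 21% oxygen, and 302 did the reverse, each with a called change at both oxygen levels. With 2 libraries a group, no test for a single deviating library was made within groups.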

How the results depend on the processing

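The number of genes with a called interaction, 6707, stayed within 1.5 times under every alternative fit, from 5129 to 8016 when each library was left out in turn, and fell to 3410 when a log2 interaction of at least 1 was required. The 820 genes up at 2% and down at 21% oxygen became 441 after median-of-ratios scaling, 530 after upper-quartile scaling and 359 with at least 0.5 in each direction, and 374 to 1551 when each library was left out in turn. The 302 genes with the reverse pattern became 470 after median-of-ratios scaling and 155 with at least 0.5 in each direction, and 124 to 446 with each library left out. Among the counts with a library left out, the lowest of both sets came without replicate B of growth medium at 2% oxygen, and the 1551 came without replicate A of differentiation medium at 2% oxygen. With array quality weights the 2 sets held 609 and 215 genes, of which 531 and 191 were shared with the 820 and the 302. The cause of these shifts was not tested, apart from the stricter minimum changes, which lower counts by construction.

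Deviations of A from B correlated between groups at -0.166 to 0.042, so no strong deviation shared by the letters was seen over the tested genes. These values cannot show whether A and B were paired across groups. With a replicate block the counts were 6273, 656 and 241. The genes examined singly were mostly chosen for large or called interactions in these same data, so their stability does not speak for all called genes. Of 142 genes examined singly, 132 kept their direction and their side of the threshold under every alternative run. Hspa5, which was not called, changed sign without replicate A of differentiation medium at 2% oxygen (0.02) and kept it without replicate B (-0.17). Leaving out a library leaves its group with 1, which is then assumed to vary like the other groups. The list counts under these settings were added after the data were seen.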
